A study of Mus musculus with 4 samples.

Results

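Homeobox transcription factors encoded outside the *Hox* clusters were examined in *Tmpo* WT and *Tmpo* KO immortalized mouse dermal fibroblasts (imMDFs). The group comprises 48 genes of 24181 gene names in the count files, and all 48 were found among the 32757 RefSeq transcript IDs of the files. The 48 genes were listed by name, with earlier results of these data known. The shares given below are thus not from a list set without sight of the data. *Tmpo* encodes the lamina-associated polypeptides 2, and the *Tmpo* KO cells, labelled Lap2alpha -/-, lack the isoform LAP2alpha, a partner of A-type lamins in the nuclear interior. The *Tmpo* WT cells are labelled Lap2alpha +/+. Total RNA depleted of rRNA was sequenced in 4 libraries, 1 of each genotype at passage 34 (replicate 1) and 1 of each at passage 42 (replicate 2), from untreated cells grown in the same medium. The sources name 1 immortalized line per genotype, so the loss of LAP2alpha and any other difference between the lines cannot be told apart. The replicates are not described as separate cultures beyond their passages, so p-values refer to the spread between these libraries alone, which may be technical.

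A homeobox gene encodes a transcription factor that contacts DNA through the homeodomain, a compact fold of helices. Outside the *Hox* clusters these factors fall into classes that differ in what accompanies the homeodomain: the ANTP class (the *Dlx*, *Msx*, *Meox* and *Emx* genes and their relatives), the paired-like class, the LIM class with its protein-binding LIM domains, the sine oculis class (*Six2* and its relatives), the TALE class with an extended loop in the homeodomain, and the zinc finger class. In the embryo they mark position and lineage in limb, face and skeleton, and fibroblasts in culture keep part of such a positional pattern.

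The libraries held between 12168433 (WT, passage 34) and 19603812 (KO, passage 42) reads given to transcripts. The LAP2alpha transcript of *Tmpo* (NM_011605) was counted 903 times in WT at passage 34, 1324 times in WT at passage 42 and 6 times in either KO library, which goes with the labels, although the knockout removes an exon and such counts cannot show how much of the remaining transcript was made. The 12 fibroblast markers together reached between 12092 and 16381 CPM (the count relative to the reads given to transcripts, TMM-scaled), led by *Vim* and *Col1a2*, while *Pdgfra*, *Lum* and *Fap* had at most 4.45 CPM and *Pdgfrb* had 0 counts. Reads in exons shared by several IDs of 1 gene were set aside as ambiguous. A low or 0 count thus does not show that a marker was absent. *Thy1*, a fibroblast surface protein, was the 1 fibroblast marker called, with a log2 fold change of 1.80. The 36 markers of keratinocytes, melanocytes, endothelium, leukocytes, skeletal muscle and Schwann cells together reached 77.4 and 80.1 CPM in WT and 96.9 and 69.3 CPM in KO, with 5 of them at 0 counts and *Tyr*, at up to 40.1 CPM, the highest. Of the 5 mural markers, all tested, *Cspg4* was called higher in KO. Together the 5 reached 2529 and 2087 CPM in WT and 2264 and 1727 CPM in KO. Of the 6 markers of cartilage and bone 5 were tested, and *Col2a1* and *Sox9* were called lower in KO. Over all transcripts tested, 2.75% were called. The part of these differences in the results on homeobox genes was not tested.

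A transcript entered the test when it had at least 1 CPM in both libraries of at least 1 genotype, which 36 of the 48 genes did. With edgeR's quasi-likelihood test and a Benjamini-Hochberg adjusted p under 0.05 over all 13855 transcripts tested, 4 of the 36 were called, 3 higher in KO (*Shox2*, *Lhx8* and *Meox2*) and 1 lower (*Emx2*). This is 11.1% of the genes tested, against 2.75% of all transcripts tested (1.51% higher and 1.24% lower). *Meox2* entered the test through the KO libraries alone, so it had to be higher in KO to be tested. With at least 1 CPM asked of all 4 libraries, 3 of 32 genes were called, against 315 of 12399 transcripts. With a term for the passage in the model, 8 of the 36 were called, against 1092 of 13855 transcripts. The genes added were *Meox1*, *Prrx2*, *Six2* and *Zeb1*. The fold changes of the 4 called genes ran from -1.54 to 2.90 on the log2 scale, and those of the other 32 from -0.89 (*Meox1*) to 1.28 (*Isl1*). In these bulk libraries, fewer cells with a transcript and less transcript per cell cannot be told apart. On simulated counts for this comparison, the procedure called 87.2% of transcripts changed 4-fold and 26.2% of those changed 2-fold, and 9.57% of its calls were false.

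The 250 bases before the start of each called gene are shown because the 4 genes differ in base composition and in the short core promoter motifs there. The sequences are those of RefSeq on GRCm38.p6, 5′ to 3′ on the strand of the gene, from chr3:66981772-66982021 (minus strand) for *Shox2*, chr3:154330561-154330810 (minus strand) for *Lhx8*, chr12:37108290-37108539 (plus strand) for *Meox2* and chr19:59458440-59458689 (plus strand) for *Emx2*. Capitals mark a match to TATAAA or CCAAT, which were searched on both strands.
Shox2: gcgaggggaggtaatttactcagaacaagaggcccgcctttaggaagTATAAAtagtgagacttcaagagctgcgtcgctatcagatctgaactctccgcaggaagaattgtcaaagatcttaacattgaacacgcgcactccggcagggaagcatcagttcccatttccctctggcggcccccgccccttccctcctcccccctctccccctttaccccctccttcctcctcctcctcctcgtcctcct
Lhx8: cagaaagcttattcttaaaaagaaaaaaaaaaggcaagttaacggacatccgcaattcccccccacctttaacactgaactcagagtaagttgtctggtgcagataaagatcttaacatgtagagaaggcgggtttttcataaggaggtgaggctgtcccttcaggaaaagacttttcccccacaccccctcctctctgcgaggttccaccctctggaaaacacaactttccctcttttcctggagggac
Meox2: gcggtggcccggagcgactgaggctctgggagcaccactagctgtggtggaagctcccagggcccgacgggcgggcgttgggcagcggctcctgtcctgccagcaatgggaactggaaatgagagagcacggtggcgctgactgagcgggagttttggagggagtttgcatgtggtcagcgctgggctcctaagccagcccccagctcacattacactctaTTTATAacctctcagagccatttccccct
Emx2: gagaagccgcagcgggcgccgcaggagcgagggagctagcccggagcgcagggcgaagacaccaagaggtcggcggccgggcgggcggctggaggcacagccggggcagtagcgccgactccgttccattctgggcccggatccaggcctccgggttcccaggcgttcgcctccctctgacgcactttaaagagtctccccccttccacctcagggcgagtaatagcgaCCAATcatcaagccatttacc
The *Shox2* window held TATAAA 203 bases before the start. The *Meox2* window held TTTATA, the reverse complement of TATAAA, 29 bases before the start. A TATA box lies at about this distance in promoters that use one, but here TATAAA is on the other strand. The *Emx2* window held CCAAT 21 bases before the start, and the *Lhx8* window held neither motif. GC content was 55.6% for *Shox2*, 46.0% for *Lhx8*, 62.0% for *Meox2* and 67.2% for *Emx2*. A match describes the letters only and is no evidence that a factor is bound there.

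The 4 called genes thus sit on both sides of the composition of this group. Of the 48 genes 33 had an entry in the RefSeq promoter table, with a median GC content of 63.6%, against 52.0% over all 27018 promoters of the table. A ratio of observed to expected CpG of at least 0.6, the usual mark of a CpG island promoter, was found in 24 of the 33 (72.7%), against 34.5% of all promoters. Among the called genes *Emx2* (0.850) and *Shox2* (0.630) were above this limit, and *Meox2* (0.503) and *Lhx8* (0.309) were below it. TATAAA was present in 3 of the 33 (9.09%, against 13.0% of all) and CCAAT in 15 (45.5%, against 34.5%). TAATTA, a core that many homeodomains bind, was present in 2 (6.06%, against 4.90%), and CACCTG, a site of the ZEB proteins, in 2 (6.06%, against 17.1%).

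*Shox2* (NM_013665, chr3:66775649-66785693 of mm9, minus strand), a paired-like factor of proximal limb growth and of the sinus node of the heart, rose in KO. It had 275 counts in WT against 968 in KO at passage 34 and 348 against 1324 at passage 42. Both KO libraries lay far above both WT libraries, and the 2 libraries of a genotype lay close together. The mean level was 22.6 ± 0.670 CPM in WT and 63.9 ± 6.46 CPM in KO (SD, n = 2). The log2 fold change was 1.50 ± 0.225 (SE), with an adjusted p of 0.0047 in edgeR's quasi-likelihood test. Within the passages the difference was 1.36 (95% counting interval 1.17 to 1.56) and 1.62 (1.46 to 1.81). *Rsrc1*, a splicing factor gene of the other strand, runs away from *Shox2* and starts 0.381 kb inside its 5′ end, and no source states whether strand was used in counting, so reads in that short overlap cannot be told apart. *Rsrc1* itself had a log2 fold change of 0.29 and was not called. Without the WT library of passage 42, the adjusted p of *Shox2* in edgeR's quasi-likelihood test was 0.0808 at a log2 fold change of 1.47.

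*Lhx8* (NM_010713, chr3:153969260-153993615 of mm9, minus strand), a LIM homeodomain factor of tooth and palate mesenchyme, of forebrain cholinergic neurons and of oocytes, also rose. Its counts were 15 in WT against 89 in KO at passage 34 and 28 against 188 at passage 42. The genotypes did not overlap, and the KO library of passage 42 stood highest. Levels were low, at 1.52 ± 0.369 CPM in WT and 7.59 ± 3.02 CPM in KO (SD, n = 2). Its log2 fold change was 2.31 ± 0.433 (SE), with an adjusted p of 0.0165 in edgeR's quasi-likelihood test. The difference was 2.01 (1.32 to 3.01) at passage 34 and 2.37 (1.87 to 3.08) at passage 42. The adjusted p in edgeR's quasi-likelihood test was 0.179 without the WT library of passage 34 and 0.156 without that of passage 42, at log2 fold changes of 2.11 and 2.59.

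*Meox2* (NM_008584, chr12:37835127-37908372 of mm9, plus strand), an ANTP-class factor of somites, limb muscle and vascular cells, had the largest fold change of the 36 genes tested. It was counted 5 times in WT against 35 times in KO at passage 34 and 8 times in WT and 95 times in KO at passage 42. Both WT libraries were near the lower end of what was counted, and *Meox2* entered the test through the KO libraries alone, so that it had to be higher in KO to be tested at its WT level. Its mean level was 0.464 ± 0.0630 CPM in WT and 3.53 ± 1.96 CPM in KO (SD, n = 2). For *Meox2* the log2 fold change was 2.90 ± 0.557 (SE), with an adjusted p of 0.0180 in edgeR's quasi-likelihood test, and 2.06 (1.00 to 4.06) and 2.99 (2.24 to 4.53) within the passages. Transcripts of chromosome 12 had a median log2 fold change of 0.45, and *Meox2* exceeded this by 2.45, a shift whose part in the result was not tested. The adjusted p in edgeR's quasi-likelihood test was 0.181 without the WT library of passage 34 and 0.247 without that of passage 42, at log2 fold changes of 2.80 and 3.06.

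*Emx2* (NM_010132, chr19:59533180-59539847 of mm9, plus strand), an ANTP-class factor of the cerebral cortex, the urogenital tract and the scapula, fell in KO. Counts were 750 in WT against 473 in KO at passage 34 and 983 against 274 at passage 42. Both KO libraries lay below both WT libraries, and the KO library of passage 42 was the lowest. The WT libraries hardly differed, at 62.7 ± 0.301 CPM, and the KO libraries stood at 21.6 ± 10.5 CPM (SD, n = 2). The fold change on the log2 scale was -1.54 ± 0.311 (SE), with an adjusted p of 0.0228 in edgeR's quasi-likelihood test. The difference was -1.11 (-1.29 to -0.95) at passage 34 and -2.13 (-2.34 to -1.95) at passage 42, and these counting intervals do not overlap. The adjusted p in edgeR's quasi-likelihood test was 0.104 without the WT library of passage 34 and 0.172 without that of passage 42, at log2 fold changes of -1.52 and -1.54.

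**Figure D1:**
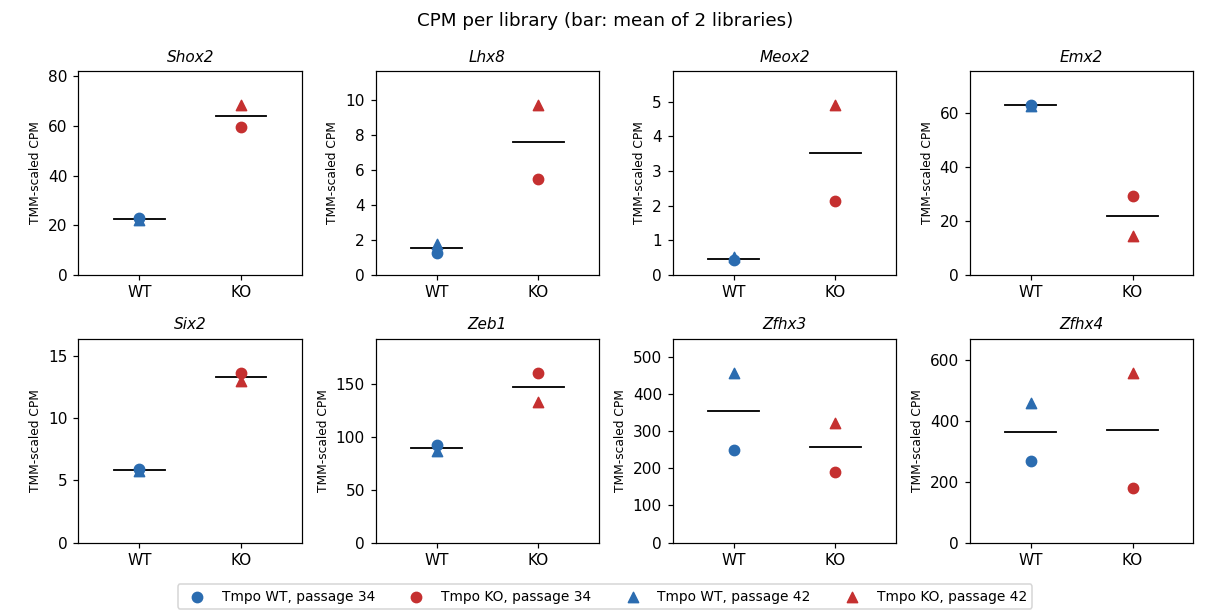
TMM-scaled CPM in each library (vertical axis, linear from 0) of 8 homeobox genes in Tmpo WT (blue) and Tmpo KO (red), with circles for passage 34, triangles for passage 42 and a bar at the mean of 2 libraries. The genotypes do not overlap in the 4 called genes nor in Six2 and Zeb1. These were picked by p in the same libraries, so this is no further support. Both KO libraries lay above both WT libraries in 21.9% of all transcripts tested and below them in 20.0%. Zfhx3 and Zfhx4 are higher at passage 42 in each genotype.

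A further 7 genes had an unadjusted p under 0.05 and missed the adjusted threshold, all with a positive fold change. In all, 11 of the 36 had an unadjusted p under 0.05 (30.6%, against 12.8% of all transcripts tested), 10 of them higher in KO and 1 lower (6.95% and 5.81% of all transcripts tested). Among the 11 are *Meox2* and *Isl1*, which entered the test through the KO libraries alone. With at least 1 CPM asked of all 4 libraries, 10 of 32 genes were under this limit, against 1540 of 12399 transcripts. *Six2*, which maintains the nephron progenitors of the kidney and is also made in facial and skull base mesenchyme, was the nearest to the threshold. It had 71 counts in WT against 223 in KO at passage 34 and 91 against 252 at passage 42. The genotypes were well apart and the libraries of a genotype close, at 5.87 ± 0.121 CPM in WT and 13.4 ± 0.452 CPM in KO (SD, n = 2). The log2 fold change was 1.19 ± 0.307 (SE) with an adjusted p of 0.0764 in edgeR's quasi-likelihood test, and 1.18 and 1.15 within the passages. DESeq2 gave *Six2* an adjusted p of 0.0198, edgeR's exact test 0.0187 and its likelihood ratio test 0.0168. In edgeR's quasi-likelihood test the adjusted p was 0.400 without the WT library of passage 34 and 0.494 without that of passage 42, and 0.0394 and 0.0173 without the KO libraries of these passages.

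*Zeb1*, a zinc finger and homeodomain repressor of epithelial genes, had 1098 counts in WT against 2629 in KO at passage 34 and 1370 against 2575 at passage 42. The genotypes did not overlap, at 89.6 ± 3.55 CPM in WT and 147 ± 19.8 CPM in KO (SD, n = 2). Its log2 fold change was 0.72 ± 0.200 (SE), with an adjusted p of 0.104 in edgeR's quasi-likelihood test. *Zeb1* lies on chromosome 18, whose transcripts had a median log2 fold change of 0.35, and it exceeded this by 0.37, a shift whose part in the result was not tested. Of 15 epithelial genes that ZEB proteins are known to repress, 10 entered the test with a median log2 fold change of -0.09, against 0.02 over all transcripts tested. None of the 10 was called by edgeR's quasi-likelihood test, its exact or likelihood ratio test or DESeq2. Of the 10, 1 had an unadjusted p under 0.05, as did 12.8% of all transcripts tested. This was *Cdh1*, the epithelial cadherin, with 56 counts in WT against 45 in KO at passage 34, 76 against 49 at passage 42, and a log2 fold change of -0.85.

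The other 5 were less even between the passages. *En1*, a mark of ventral limb ectoderm and of a dermal fibroblast lineage, had 226 counts in WT against 572 in KO at passage 34 and 316 against 506 at passage 42, with a log2 fold change of 0.65. *Isl1*, a LIM factor of motor neurons and heart progenitors, had 4 and 32 counts at passage 34 and 20 and 41 at passage 42, with a log2 fold change of 1.28, and entered the test through the KO libraries alone. *Gbx2*, a factor of the border between midbrain and hindbrain, had 14 and 61 counts at passage 34 and 25 and 39 at passage 42. *Msx2*, a factor of skull and limb mesenchyme downstream of BMP signals, had 30 and 138 counts at passage 34 and 54 and 71 at passage 42. *Prrx2*, a paired-like factor of limb, face and dermal mesenchyme, had 763 and 1106 counts at passage 34 and 634 and 1761 at passage 42. In all 5 of these genes both KO libraries lay above both WT libraries, as in 21.9% of all transcripts tested. The 5 were picked by p in these same libraries, so this is no further support. The within-passage differences of *Gbx2* (1.57 and 0.32), *Msx2* (1.70 and 0.09) and *Prrx2* (0.08 and 1.17) each came mostly from 1 passage. Without the KO library of passage 42, edgeR's quasi-likelihood test gave adjusted p-values of 0.0373 for *Gbx2* and 0.0052 for *Msx2*. Without the KO library of passage 34 the same edgeR test gave 0.735 and 0.887, at log2 fold changes of 0.52 and 0.28, and without either WT library between 0.742 and 0.997.

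**Figure D2:**
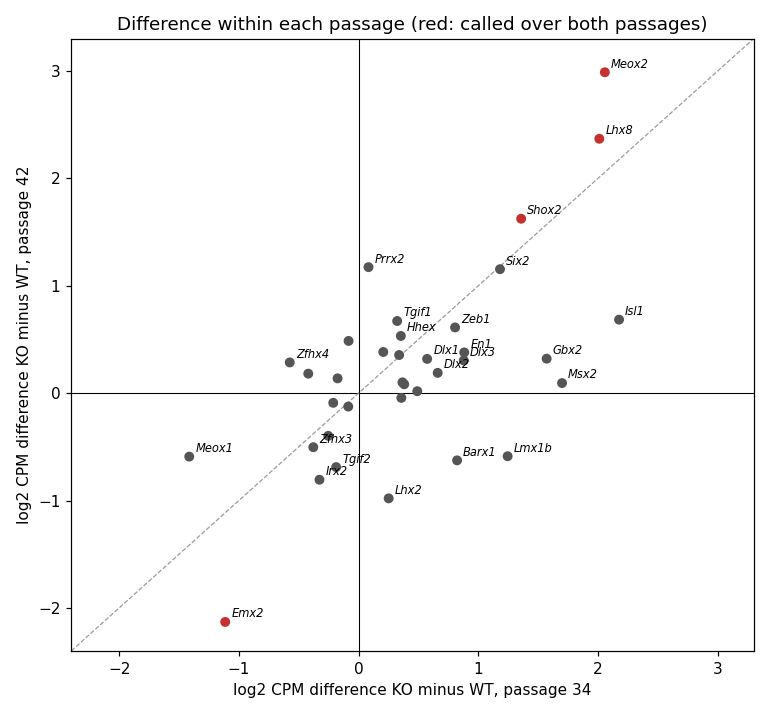
Log2 CPM difference KO minus WT at passage 34 (horizontal axis) and at passage 42 (vertical axis) for the 36 genes tested, 1 library per genotype and passage, with the 4 called genes in red and a dashed line where both are equal. The called genes lie far from 0 at both passages, which is no further support, since they were picked by their calls in these same libraries.

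Most genes of the group had positive fold changes. The log2 fold change was positive for 25 of the 36 and negative for 11, a share of 69.4% positive against 51.6% of all transcripts tested, and the median was 0.29 against 0.02. Both KO libraries lay above both WT libraries for 18 genes (50.0%, against 21.9% of all transcripts tested) and below them for 5 (13.9%, against 20.0%), and the genotypes overlapped for 13. Of the 36 genes 4 entered the test through 1 genotype alone, *Meox2* and *Isl1* through KO and *Lhx2* and *Lmx1b* through WT. Among the other 32, the KO libraries lay above the WT libraries for 16 and below them for 5, and the median log2 fold change was 0.26.

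Low counts moved in the same direction at passage 34. The 3560 tested transcripts with a mean under 3 CPM had a median log2 difference KO minus WT of 0.21 at passage 34 and -0.04 at passage 42, whereas the 10295 others had -0.03 and 0.01. The 11 homeobox genes under 3 CPM had medians of 0.82 and 0.14, and the 25 others had 0.35 and 0.19. The 25 others include the called genes *Shox2*, *Lhx8* and *Emx2*, and the group was listed with earlier results of these data known. The part of the shift of low counts in the results on the group was not tested.

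**Figure D3:**
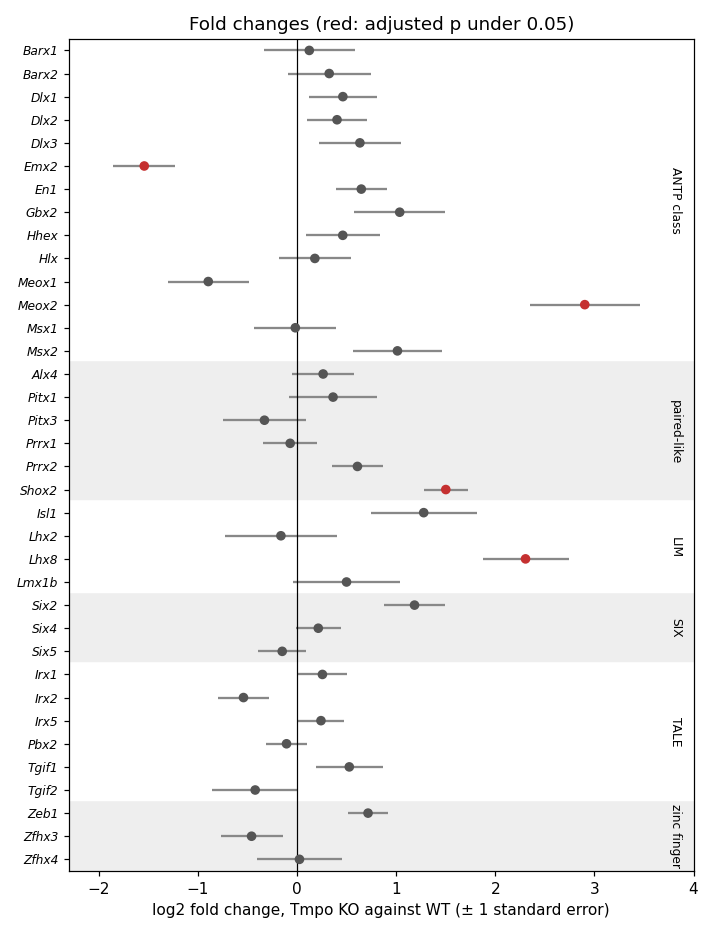
Log2 fold change of Tmpo KO against Tmpo WT (horizontal axis) with 1 standard error on each side for the 36 homeobox genes tested, grouped by class, with red points for an adjusted p under 0.05. The 3 points to the right, Shox2, Lhx8 and Meox2, and the 1 to the left, Emx2, are the called genes, and 25 of the 36 lie to the right of 0.

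Among the 16 ANTP-class genes, 14 were tested, with 1 called higher (*Meox2*) and 1 lower (*Emx2*), and 11 had a positive fold change. Of the 5 *Dlx* genes, which pattern the jaw, limb and forebrain and lie in pairs, *Dlx1*, *Dlx2* and *Dlx3* were tested and had positive fold changes that were not called. *Dlx1* and *Dlx2*, neighbours on chromosome 2, had log2 fold changes of 0.46 ± 0.341 and 0.40 ± 0.298 (SE), and both KO libraries of each lay above both WT libraries. *Dlx3* had 0.63 ± 0.417 (SE) and its neighbour *Dlx4* stayed under the filter with 14 and 9 counts in the WT libraries against 15 and 18 in the KO libraries, as did *Dlx5* with at most 4. *Meox1*, the paralogue of *Meox2* in the somite, had the lowest fold change of the genes not called. Its counts were 135 in WT against 68 in KO at passage 34 and 240 against 195 at passage 42. The genotypes did not overlap, and the log2 fold change was -0.89 ± 0.408 (SE) with an adjusted p of 0.394 in edgeR's quasi-likelihood test. The paralogues thus had fold changes of opposite sign. *Msx1*, the paralogue of *Msx2*, had 20 and 22 counts in the WT libraries against 24 and 30 in the KO libraries and a log2 fold change of -0.02. The remaining ANTP-class genes tested, *Barx1*, *Barx2*, *Hhex* and *Hlx*, had log2 fold changes between 0.12 and 0.46.

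Of the 7 paired-like genes 6 were tested, with *Shox2* called higher. *Prrx1*, the paralogue of *Prrx2* and a widely used mark of limb and dermal mesenchyme, had a fold change near 0. It had 509 counts in WT against 520 in KO at passage 34 and 763 against 1064 at passage 42, in transcript NM_001025570, and its genotypes overlapped. Its log2 fold change was -0.07 ± 0.273 (SE), and -0.42 and 0.18 within the passages. A second ID of *Prrx1*, NM_175686, had 28 and 20 counts in the WT libraries against 19 and 42 in the KO libraries. *Alx4* and *Pitx1*, of the craniofacial skeleton and the hindlimb, had log2 fold changes of 0.26 and 0.36, and *Pitx3*, of lens and midbrain neurons, had -0.33. *Alx1* had between 10 and 21 counts and was not tested.

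Of the 5 LIM-class genes 4 were tested, with *Lhx8* called higher. *Lmx1b*, which sets the dorsal side of the limb, had 13 counts in WT against 45 in KO at passage 34 and 23 against 18 at passage 42. *Lhx2*, of hair follicle stem cells and forebrain, had 28 and 46 at passage 34 and 26 and 15 at passage 42 in transcript NM_010710. *Lmx1b* and this ID of *Lhx2* thus had a higher CPM in KO at passage 34 and a lower one at passage 42, and the genotypes overlapped. A second ID of *Lhx2*, NM_001290646, did not share this pattern. It had 14 and 37 counts at passage 34 and 15 and 24 at passage 42, with a log2 fold change of 0.72 that was not called. Of the 10 LIM domain cofactors and LIM-only proteins, which link LIM homeodomains to other factors, 4 were tested. None was called by edgeR's quasi-likelihood, exact or likelihood ratio test or DESeq2. Of the 4, 1 had an unadjusted p under 0.05, as did 12.8% of all transcripts tested.

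The 3 sine oculis genes were all tested. *Six4* and *Six5*, which act in muscle precursors and lens, had log2 fold changes of 0.22 ± 0.226 and -0.15 ± 0.239 (SE), beside the 1.19 of *Six2*. Of the 13 TALE-class genes 6 were tested. None was called by edgeR's quasi-likelihood, exact or likelihood ratio test or DESeq2, and none had an unadjusted p under 0.05. *Irx1* and *Irx2*, iroquois genes of 1 cluster on chromosome 13, differed in sign, with log2 fold changes of 0.26 ± 0.249 and -0.54 ± 0.258 (SE). *Irx5* had 0.24, and *Pbx2*, a partner of *Hox* proteins on DNA, had -0.11 ± 0.206 (SE) with 661 and 912 counts in the WT libraries against 852 and 1028 in the KO libraries. The repressors *Tgif1* and *Tgif2* of TGF-beta and retinoid responses had 0.53 and -0.42. The value of *Tgif1* is that of NM_009372, and its other tested IDs had -0.12, -0.24 and 0.50.

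**Figure D4:**
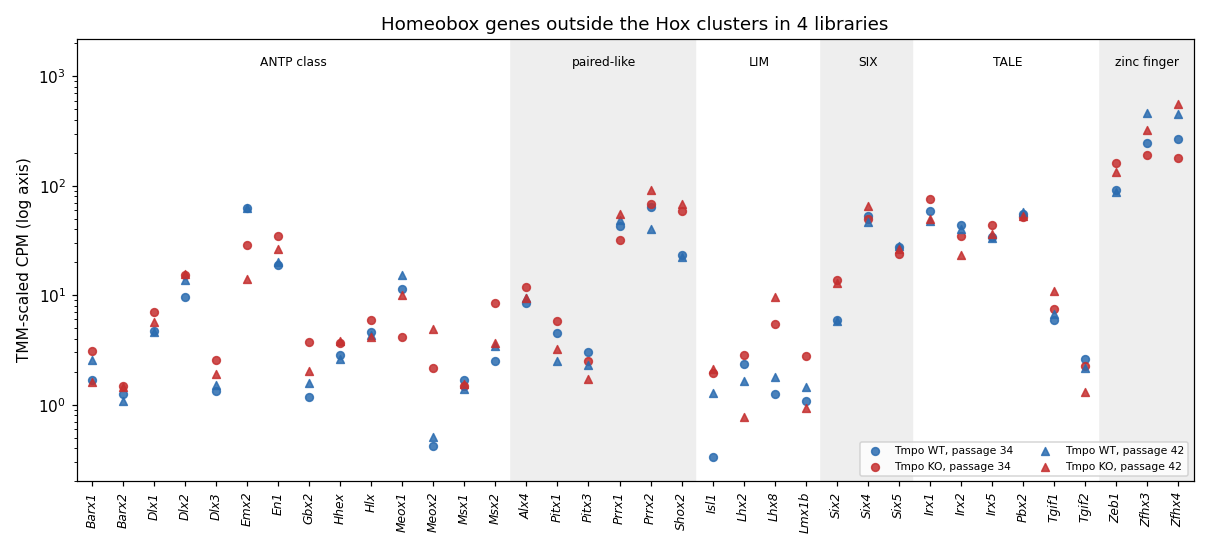
TMM-scaled CPM (vertical axis, logarithmic) of the 36 homeobox genes tested in the 4 libraries, with blue for Tmpo WT, red for Tmpo KO, circles for passage 34 and triangles for passage 42, grouped by class. Levels run from 0.336 CPM (Isl1 in WT at passage 34) to 558 CPM (Zfhx4 in KO at passage 42).

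Levels between genes were compared per kilobase of exonic length, as the mean CPM per kb over the 4 libraries. *Prrx2* (33.7 CPM per kb), *Irx1* (28.1) and *Zfhx4* (26.3) had the highest levels, and *Lmx1b* (0.322) the lowest of the 36 tested. Among the called genes *Emx2* (15.7) and *Shox2* (12.8) stood well above *Lhx8* (1.81) and *Meox2* (0.433). The highest levels hence belonged to genes that were not called between genotypes. A level of a gene with several IDs is too low, since reads in exons shared by its IDs were set aside as ambiguous.

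This counting bears on most of the 12 genes that could not be tested. Of the 48 genes 34 have 1 ID in the files, and 32 of these were tested, all but *Dlx4* and *Alx1*. Of the 14 genes with several IDs 4 were tested (*Lhx2*, *Prrx1*, *Tgif1* and *Tgif2*) and 10 were not. *Meis2* and *Meis3*, TALE-class partners of *Pbx* and *Hox* proteins, had 0 counts in all of their 6 and 4 IDs, and *Irx3* had 1 count in 2 IDs. *Meis1*, *Pknox1*, *Pknox2*, *Pbx3*, *Lhx9*, *Zeb2* and *Dlx5* had between 0 and 29 counts per library in the ID with the most reads. These counts come only from bases that set an ID apart from the others of its gene, and the level of these 10 genes cannot be read from them.

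The 2 *Zfhx* genes, large zinc finger and homeodomain proteins of neurons and muscle, were the 2 of the 36 called between passages. In a fit with genotype as a term, 2 genes (5.56%) were higher at passage 42, against 2.31% of all transcripts called in either direction and 1.77% called higher. Read for genotype, the same model called 8 of the 36 genes, whereas the main fit for genotype, with no passage term, called 4. *Zfhx4* had 3181 counts in WT against 2921 in KO at passage 34 and 7193 against 10783 at passage 42. *Zfhx3* had 2962 and 3118 at passage 34 and 7197 and 6240 at passage 42. In CPM, both libraries of passage 42 lay above both of passage 34 for each gene. The log2 fold change of passage 42 against 34 was 1.21 ± 0.188 (SE) for *Zfhx4* and 0.82 ± 0.183 (SE) for *Zfhx3*, with adjusted p-values of 1.32e-07 and 0.0014 in edgeR's quasi-likelihood test. With no genotype term the adjusted p of edgeR's quasi-likelihood test was 0.967 for both, none of the 36 genes was called, and 3 had an unadjusted p under 0.05. Both genes are long, and the 253 tested genes with an exonic length of at least 13 kb, a limit set after these values were seen, had a median log2 fold change between passages of 0.33, against 0.00 for shorter genes. Of these 253, 13.8% were called between passages, against 2.01% of the shorter ones, and the part of length in the result was not tested.

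The genes around the 4 called homeobox genes were examined within 500 kb of each start. Over all transcripts tested, 2.75% were called between genotypes. Of the 6 tested around *Emx2*, 1 was called, the noncoding RNA *Emx2os* (NR_002863), which starts 0.055 kb upstream of *Emx2* on the other strand. It had 469 counts in WT against 302 in KO at passage 34 and 700 against 336 at passage 42. As for *Emx2*, both KO libraries lay below both WT libraries, and the log2 fold change was -1.22 ± 0.239 (SE) with an adjusted p of 0.0192 in edgeR's quasi-likelihood test. The annotation of mm9 gives the pair no overlap, but with the use of strand unstated, reads of the pair cannot be told apart where transcripts reach past these ends. The other 5 had log2 fold changes between -0.92 (*Rab11fip2*) and 0.46 (*Kcnk18*).

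Around *Shox2*, 1 of 3 genes tested was called, against 2.75% of all transcripts tested. This was *Lxn*, which encodes the carboxypeptidase inhibitor latexin, starts 482 kb upstream and was higher in KO. *Lxn* had 577 counts in WT against 1338 in KO at passage 34 and 549 against 1774 at passage 42, with a log2 fold change of 1.06 ± 0.229 (SE) and an adjusted p of 0.0320 in edgeR's quasi-likelihood test. The other 2 tested there, *Gfm1* and *Rsrc1*, had 0.23 and 0.29. Around *Lhx8*, 5 genes were tested with log2 fold changes between -0.45 and 0.78, and none of them was called by edgeR's quasi-likelihood, exact or likelihood ratio test or DESeq2 or had an unadjusted p under 0.05. The 1 neighbour of *Meox2* was not tested.

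**Figure D5:**
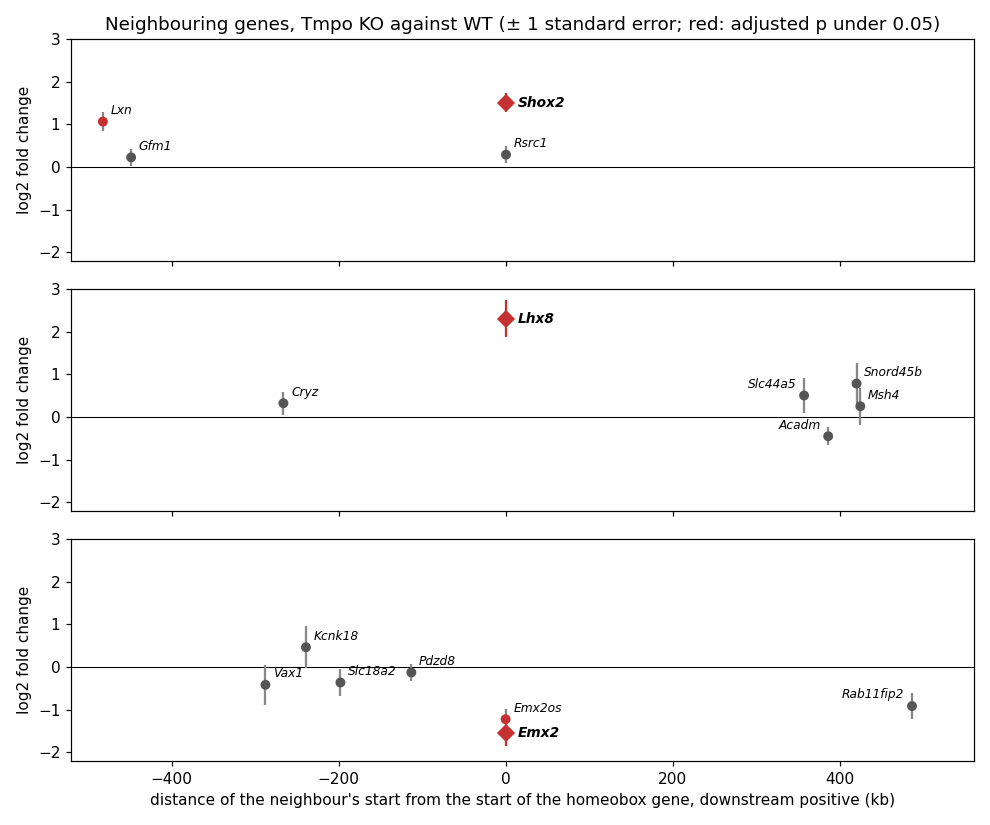
Log2 fold change of Tmpo KO against Tmpo WT (vertical axis, with 1 standard error on each side) of tested genes within 500 kb of the start of Shox2, Lhx8 and Emx2, placed by distance between starts in kb (horizontal axis, downstream positive). Diamonds are the homeobox genes and red points have an adjusted p under 0.05: Lxn lies with Shox2 above 0, Emx2os with Emx2 below 0, and no neighbour of Lhx8 is red.

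The group was set beside the other homeobox genes outside the *Hox* clusters, 126 names of which 124 were in the files and 84 were tested. Of these 84, 2 were called, both higher in KO, a share near the 2.75% of all transcripts tested. *Mkx*, the homeobox gene mohawk of tendon, had 23 counts in WT against 176 in KO at passage 34 and 26 against 271 at passage 42, with a log2 fold change of 2.79 ± 0.367 (SE) and an adjusted p of 0.0024 in edgeR's quasi-likelihood test. *Tshz1*, a teashirt zinc finger factor, had 1208 and 3175 counts at passage 34 and 1293 and 3476 at passage 42, with 1.03 ± 0.204 (SE) and an adjusted p of 0.0204 in the same edgeR test. Both genes lie on chromosome 18 with its median of 0.35, as does *Zeb1*. The median log2 fold change of the 84 was 0.16, against 0.29 for the 36.

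Of partners and regulators of these factors, the BMP pathway, which turns on *Msx* and *Dlx* genes in mesenchyme, was examined next. Of its 22 genes 19 were tested, with 1 called higher and 2 lower (1.51% and 1.24% of all transcripts tested), and the median log2 fold change was -0.31 against 0.02 over all transcripts. *Grem1*, a secreted BMP antagonist, had 1546 counts in WT against 4895 in KO at passage 34 and 1505 against 5617 at passage 42, a log2 fold change of 1.39 ± 0.216 (SE). *Smad9*, a transducer of BMP signals, had 282 and 151 counts at passage 34 and 580 and 178 at passage 42, a log2 fold change of -1.71 ± 0.298 (SE). *Id2*, a target of BMP signals, had 654 and 276 counts at passage 34 and 720 and 462 at passage 42, a log2 fold change of -1.30 ± 0.256 (SE). In each of the 3 the genotypes did not overlap, which is no further support, since the 3 were picked by their calls. *Id2* lies on chromosome 12. Of the Groucho and CtBP corepressors and the Eya and Dach cofactors of sine oculis proteins, 3 of 6, 1 of 2 and 1 of 6 were tested, with log2 fold change medians of -0.45, -0.01 and -0.26. None of these was called by edgeR's quasi-likelihood, exact or likelihood ratio test or DESeq2 or had an unadjusted p under 0.05. In the 3 lists 2, 1 and 1 genes had 0 counts. Reads shared by IDs of 1 gene were set aside, so such counts do not show absence, and genes not tested are left undecided.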

How the data were processed

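RNA sequencing of 4 imMDF libraries was used, 2 of *Tmpo* WT and 2 of *Tmpo* KO, grouped by the genotype and replicate in the sample labels. The deposited files hold raw counts per RefSeq transcript ID. The authors clipped adapters with cutadapt, mapped reads to mm9 with TopHat2 version 2.0.9 and counted them with htseq-count of HTSeq over transcripts, per the submitters' processing notes and the methods of the study. Second-strand cDNA was made with dUTP, but the use of strand in counting is not stated there, nor are other versions. Each ID is a feature of its own, so reads in exons shared by IDs of 1 gene were set aside as ambiguous. Reads in no transcript and ambiguous reads stayed out of library sizes and tests.

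Of the 32757 IDs 32308 got a symbol from RefSeq (GRCm38.p6, for names alone), and mm9 positions came from GENCODE. Per gene the ID with the highest summed count was used. Transcripts with at least 1 CPM in both libraries of at least 1 genotype (13855) were tested with R 4.3.3 and edgeR 4.0.16, using TMM scaling (factors 0.979 to 1.03), a dispersion trend (biological coefficient of variation 21.8%), the quasi-likelihood F-test and Benjamini-Hochberg adjustment over all transcripts, at an adjusted p under 0.05. The standard error is the fold change divided by the root of F. Within a passage, log2 CPM (prior count 2) was subtracted, with exact 95% intervals that cover counting error only and no test. With 2 libraries against 2, an exact two-sided permutation test of a single value cannot go below p = 0.333, and calls depend on the variance that edgeR pools over transcripts. The procedure was tested on 5 simulated sets of counts with 200 transcripts changed 2-fold or 4-fold.

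The 48 genes and the lists were chosen with earlier results of these data known. Values were given for the genes called, for genes with an unadjusted p under 0.05, for the 3 highest per kb and those at 0 counts, for up to 2 others per class and for called genes of the other lists. Further genes were named where they are paralogues or neighbours of these, picked once values were known. As alternatives served 2 other scalings (RLE, totals), no filter and 2 other filters, sums per symbol, DESeq2 1.42.0, the exact and the likelihood ratio test of edgeR, another prior count (0.5), a replicate block, leaving out each library, and for the passages no genotype term. Tables were made in Python 3.11.15 (pandas 2.3.3, numpy 2.4.6), intervals with scipy 1.17.1 and plots with matplotlib 3.10.9.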

Additional observations from a re-analysis of the deposited data

Results flagged for a closer look

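Within the passages, 2 of the 36 genes tested moved in opposite directions, with counting intervals that exclude 0 at both. The log2 difference KO minus WT of *Prrx1* was -0.42 at passage 34 and 0.18 at passage 42. That of *Zfhx4* was -0.57 at passage 34 and 0.29 at passage 42. There is 1 library per genotype and passage, so the difference between the passages was not tested, and the intervals cover counting error only.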

How the results depend on the processing

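Of the 36 genes tested, 4 were called, and 4 remained the count with RLE size factors, library totals alone, the filterByExpr filter, counts summed per symbol and a prior count of 0.5. With at least 1 CPM in all 4 libraries 3 were called, since *Meox2* was no longer tested. Without a filter, and with DESeq2, edgeR's exact test or its likelihood ratio test, 5 were called, *Six2* being the fifth. No fold change of a gene with an unadjusted p under 0.05 changed sign under any of these settings. Leaving out 1 library gave between 0 and 11 called genes, of them 0 to 7 higher and 0 to 4 lower in KO, with the lone library of its genotype taken to vary like the others. The count was 1 without WT replicate 1, 0 without WT replicate 2 (7 with an unadjusted p under 0.05 in edgeR's quasi-likelihood test), 5 without KO replicate 1 and 11 without KO replicate 2. Over all transcripts these fits called 175, 109, 842 and 1291, against 381 with all libraries, so that the calls depend on which library is left out. With a block for the replicate number, 8 genes were called, 6 higher (*Lhx8*, *Meox2*, *Prrx2*, *Shox2*, *Six2*, *Zeb1*) and 2 lower (*Emx2*, *Meox1*), and 1092 transcripts in all. The replicate number stands for the passage, so this is the model also used for the passages, and no source pairs the libraries beyond it. The differences of replicate 2 from replicate 1 in log2(CPM + 0.5) had a Pearson correlation of 0.186 between WT and KO across the 13855 transcripts, which are not independent, and 2 pairs are too few to settle a pairing. Between passages, 2 genes were called higher, and 0 (0 higher) with no genotype term, where 3 had an unadjusted p under 0.05 in edgeR's test. The settings of the other tools were not run for the passages. At this depth and with 2 libraries per genotype most 2-fold changes were not called on simulated counts, so a gene that was not called is not shown to be equal between genotypes.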
